A study of Mus musculus with 6 samples.

Results

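Of 20685 accessible regions that lay on an autosome more than 1 kb from every annotated transcript start of Beko cells, 1040 were wider than 1000 bp. They are called wide distal regions here, and they made up 5.03% of the autosomal distal regions and 1040 of the 32527 regions of the whole list. The other 19645 distal regions, of 1000 bp or less, are called narrow and served as the comparison. Beko is a mouse progenitor T-cell line with constitutively active Notch signaling. Accessibility was measured by ATAC-Seq, in which a transposase cuts and tags DNA that is not covered by nucleosomes, in 3 libraries from cells given DAPT for 24 h, an inhibitor of the γ-secretase that releases active Notch (GSI), and 3 from cells given DMSO for 24 h, the solvent control. The labels give the DAPT dose as 10 mg/ml and the methods of the study as 10 μg/ml. All 6 libraries are from this single cell line, and no genetic change is labelled for either group. The authors deposited 1 merged list of regions for both treatments without a value per library, so read depth, replicate spread and the effect of GSI cannot be given for any region, and a region may be accessible in 1 treatment only.

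Most enhancers, the distal DNA elements to which transcription factors bind, give a short accessible stretch in which factors displace nucleosomes, while wider stretches hold room for several bound factors. In T-cell progenitors the factors known for such elements include the E proteins, which bind E-boxes, and the ETS, RUNX, GATA and TCF/LEF families, together with RBPJ, which carries the Notch signal to DNA. CpG islands are a further class of open DNA, and they are known for SP and KLF factor sites (GC boxes). The label of the cells was checked against marker genes by the presence of an accessible region within 1 kb of a start of the gene. It was present at 12 of 13 annotated T-cell markers, among them Cd3e, Cd247, Lck, Bcl11b and Rag1, at 0 of 6 B-cell markers, at 0 of 6 myeloid markers, and at 2 of 4 erythroid markers (Gata1 and Klf1).

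As examples of the cores that the text compares, the DNA at the middle of 6 wide distal regions is printed here. These regions were picked by rule and do not stand for the typical member. They are the widest members at Id2, Lef1, Cd247 and Lat and the members with most palindromic E-boxes (Glcci1) and most RBPJ cores (Ntn1) in the central 200 bp. Each line has the 200 bases around the centre, on the plus strand of build mm9. Capitals mark the cores CAGCTG and CAGGTG (E-boxes), GGAAGT (ETS), TGTGGT (RUNX), TGGGAA (RBPJ, also bound by Ikaros) and GGGCGG (SP and KLF) on either strand, so that some appear as their reverse complement (TTCCCA for the RBPJ core).
Id2, chr12:25874758-25874957: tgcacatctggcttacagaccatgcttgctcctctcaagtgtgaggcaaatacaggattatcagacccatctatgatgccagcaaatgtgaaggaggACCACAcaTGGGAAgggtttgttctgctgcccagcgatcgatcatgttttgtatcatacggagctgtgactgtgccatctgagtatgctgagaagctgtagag
Lef1, chr3:130639526-130639725: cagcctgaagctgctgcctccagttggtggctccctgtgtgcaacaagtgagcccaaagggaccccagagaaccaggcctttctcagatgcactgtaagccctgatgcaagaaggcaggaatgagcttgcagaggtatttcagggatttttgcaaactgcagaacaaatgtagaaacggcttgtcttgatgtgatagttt
Cd247, chr1:167775081-167775280: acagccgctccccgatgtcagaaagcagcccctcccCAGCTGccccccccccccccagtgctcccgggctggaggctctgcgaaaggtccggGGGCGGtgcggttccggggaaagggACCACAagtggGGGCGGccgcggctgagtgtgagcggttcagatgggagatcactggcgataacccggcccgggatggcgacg
Lat, chr7:133483320-133483519: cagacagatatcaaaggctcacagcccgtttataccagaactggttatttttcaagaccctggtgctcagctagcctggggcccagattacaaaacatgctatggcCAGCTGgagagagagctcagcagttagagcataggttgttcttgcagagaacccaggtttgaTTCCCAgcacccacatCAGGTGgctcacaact
Glcci1, chr6:8435443-8435642: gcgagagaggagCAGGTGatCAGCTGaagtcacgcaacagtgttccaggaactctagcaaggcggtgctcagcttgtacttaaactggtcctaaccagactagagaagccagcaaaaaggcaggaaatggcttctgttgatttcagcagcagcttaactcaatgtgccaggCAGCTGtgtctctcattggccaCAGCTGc
Ntn1, chr11:68221339-68221538: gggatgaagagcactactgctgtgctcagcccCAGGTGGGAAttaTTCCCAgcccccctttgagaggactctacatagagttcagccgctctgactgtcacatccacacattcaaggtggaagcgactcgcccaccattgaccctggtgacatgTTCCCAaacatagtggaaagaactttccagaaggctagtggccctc
The Id2 window, from a region whose edge lies 93001 bp upstream of the nearest Id2 start, has a RUNX and an RBPJ core side by side. The Lef1 window has none of the 6 cores. The Cd247 window is CpG-rich, with a GC content of 71.0%, and has 2 GC boxes. The Glcci1 window holds 3 palindromic E-boxes and 1 CAGGTG. In the Ntn1 window 1 of the 3 RBPJ cores overlaps an E-box, CAGGTG.

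The members were chosen by their width in the merged list, so width is given as a description with no test. The median width of the wide distal regions was 1156.5 bp (quartiles 1064.75 and 1337.25 bp), the range was 1001 to 3151 bp, and 117 were over 1500 bp and 13 over 2000 bp. Narrow regions had a median width of 456 bp. The distribution had no gap at the threshold: 379 members were 1001 to 1100 bp wide, 513 narrow regions were 901 to 1000 bp wide, 4 members stood at 1001 bp and 2 narrow regions at 1000 bp. The members covered 1281 kb, or 11.6% of the DNA in distal regions. On the 19 autosomes their share of the distal regions was 5.00% ± 0.841 (mean ± SD over autosomes), from 3.96% on chromosome 12 to 6.89% on chromosome 15, with 30 to 98 members each. There were 4664 autosomal regions over 1000 bp, a count that includes the members. The rule left out the rest of these because they lay within 1 kb of a start.

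**Figure D1:**
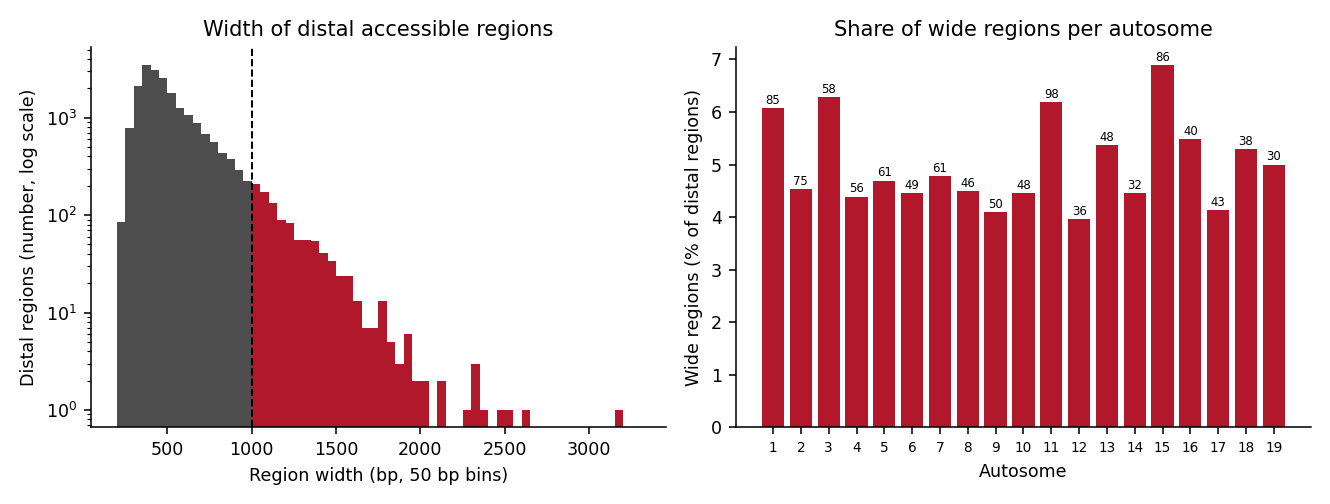
Left, number of autosomal distal regions (log scale) by width in 50 bp bins, with narrow regions in grey, wide ones in red and the limit of 1000 bp dashed. Right, wide regions as a percentage of the distal regions of each autosome, with the number of members over each bar, from 30 to 98. Counts fall smoothly across the limit, and every autosome has wide regions.

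The 10 widest members, from 2120 to 3151 bp, were of unlike kinds. The widest, at chr12:60136355-60139505 and nearest to Sip1, held no match to any of the 13 cores searched, and 3.03% of its 15-base words were distinct, which means that it is made of a short sequence repeated many times. Every 25-base word of its central 200 bp occurs more than once in the genome, which counts repeats within the region itself. No near-identical copy of the whole region was found elsewhere. Reads of such a sequence could be placed at several equal positions, and the authors kept 1 position per read, so its accessibility at this place was not measured on unique sequence. The next was 2603 bp wide (chr9:119890533-119893135), 4165 bp upstream of the nearest start of Csrnp1, and held 8 GC boxes. The third, 2511 bp wide (chr15:85499420-85501930), lay 63483 bp upstream of Ppara, a nuclear receptor of fatty acid metabolism, and held 13 GC boxes and 5 RBPJ cores. A member of 2356 bp (chr8:125224454-125226809) in a first intron near Cbfa2t3, a corepressor gene of the blood lineage, held 8 CAGGTG and 3 CAGCTG E-boxes. Another of 2332 bp (chr3:103188700-103191031) lay between genes, 105484 bp downstream of the nearest start of Trim33, and held 4 palindromic E-boxes, 4 RUNX cores and no GC box. Apart from the repeat at Sip1, these regions were made of distinct sequence, with at least 98.3% of their 15-base words distinct. Over all members, 6 had under 50% distinct words. In 35, over 50% of the 25-base words of the centre occur more than once in the genome, which makes 36 members in all.

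The first question was where wide distal regions lie relative to genes. They were intronic less often than narrow ones. The centre lay in an intron in 39.7% of the wide and 47.6% of the narrow regions, and between genes in 56.4% and 48.1%. The difference in the intronic share was -7.54 percentage points ± 6.48 (mean ± SD of the difference within each of 19 autosomes), lower in wide regions on 15 of 19 autosomes (exact sign-flip permutation test over autosomes, two-sided, adjusted p = 0.000214). The Mantel-Haenszel odds ratio over autosomes was 0.729 (95% interval 0.642 to 0.829). This interval, like the other 95% intervals given here, counts single regions as independent, unlike the test over autosomes. First introns held similar shares, 18.8% of wide and 19.4% of narrow regions, while later introns held 20.9% and 28.2%. Exons held 3.85% and 4.33%. These finer classes were not tested. By class of width, the intronic share was 42.6% at 800 to 1000 bp and 41.2% at 1000 to 1200 bp, on either side of the limit. Autosomes are blocks of 1 genome and not replicate cell cultures, so that p-values say how evenly a difference held along the genome of this line.

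The distance to the nearest start of a protein-coding transcript did not pass the test. It had a median of 20429 bp for wide and 18307 bp for narrow regions, and the difference of the medians on the log10 scale was 0.030 ± 0.115 over autosomes (exact sign-flip permutation test, adjusted p = 0.477). Of the members 254 lay more than 50 kb from such a start, and 51.0% were upstream of it. Another accessible region within 5 kb, of any kind, was found for 28.1% of the wide and 29.1% of the narrow regions, a difference of -1.42 points ± 7.21 (adjusted p = 0.558, exact sign-flip permutation test, odds ratio 0.944, 95% interval 0.822 to 1.09). Within 20 kb the order was the other way, 81.7% against 73.5%, with a difference of 7.84 points ± 5.40 and a higher share in wide regions on 18 of 19 autosomes (adjusted p = 0.000120 in the same exact permutation test). Thus the share passed the test at 20 kb and not at 5 kb, where no direction was established. A second wide distal region within 50 kb was present for 215 members, or 20.7%, and a wide distal region within 50 kb for 14.8% of the narrow ones. The nearest coding gene had an accessible start for 70.8% of wide and 66.4% of narrow regions, beside 47.6% of all autosomal coding genes.

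**Figure D2:**
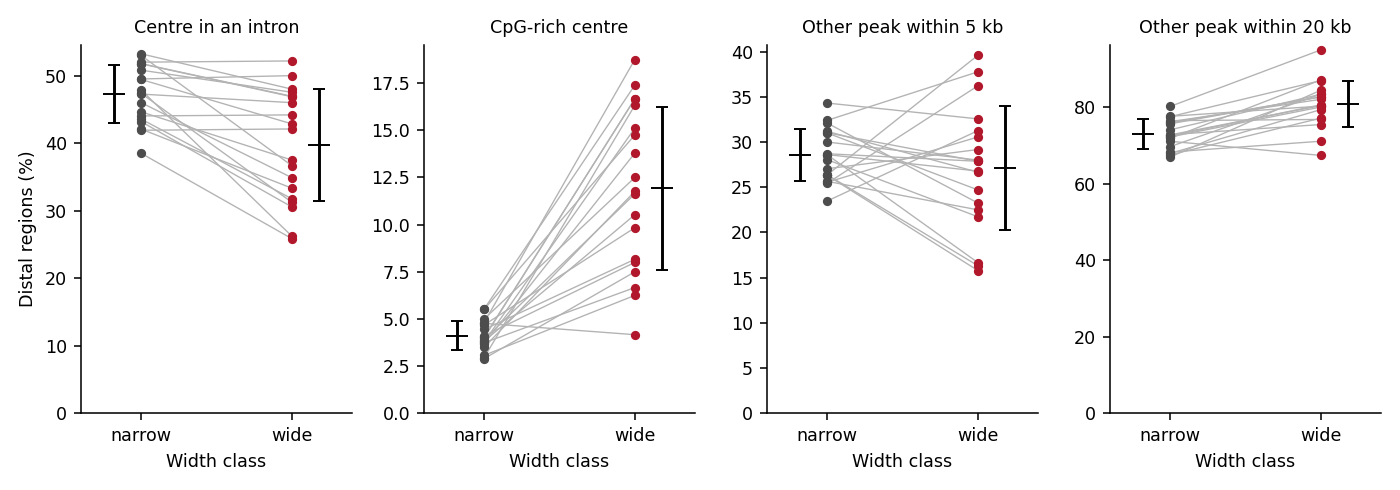
Percentage of narrow (grey) and wide (red) distal regions with the feature named over each panel, 1 point per autosome joined by a line, with black bars for the mean ± SD over 19 autosomes. The intronic share was lower in wide regions on 15 autosomes, the CpG-rich share was higher on 18, and the share with another region within 20 kb was higher on 18, while lines cross in both directions at 5 kb.

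The genes nearest to wide distal regions included 26 of the listed T-cell genes, which also had many distal regions of any width. Of 21281 autosomal coding genes, 894 were nearest to at least 1 member, which is 4.20%. Of the 10168 coding genes with an accessible start it was 633, or 6.23%. Of genes of T-cell surface and signalling proteins it was 12 of 33 and of T-lineage transcription factors 14 of 38. An accessible start was present at 29 genes of each of these lists. The median gene of these lists was nearest to 3 and 5 distal regions, respectively, and the median coding gene to 0. Of the distal regions nearest to T-cell surface and signalling genes, 16 of 124 were wide (12.9%), compared with 5.03% of all distal regions. Of those nearest to a coding gene with an accessible start, 5.35% were wide. For T-lineage transcription factors it was 18 of 287 (6.27%), which is near the background. Of the Notch pathway list it was 10 of 30 genes and 13 of 112 distal regions (11.6%). The lists overlap, since Il2ra and Myc, with 1 member each, are on the Notch list and also on a T-cell list. Nearest to B-cell genes there were 0 wide among 11 distal regions, which allows a share of up to 27.3%, and nearest to liver and neuron genes 0 among 8, which allows up to 37.5%. Of the myeloid and erythroid list 2 of 18 genes, Cebpb and Itgam, had a member each, among 15 distal regions (13.3%), a share like those of the T-cell surface and Notch lists but on 2 regions. The lists were described by counts only, and the Notch list includes loci that the study had picked in these cells (Gm266, Dennd2d, Il2ra, Lgmn, Sufu, Hey1, Hes1, Notch3 and Dtx1), so its count is not independent of the study's choice. With a gene and 50 kb on either side of it counted, 8.69% of all coding genes held a member, compared with 14 of 33, 13 of 38 and 9 of 30 of the T-cell surface, transcription factor and Notch lists, 4 of 18 of the myeloid and erythroid list, 1 of 14 of the B-cell list and 0 of 19 of the liver and neuron list. Of coding genes with an accessible start, 12.5% held a member in this window. Regions over 1500 bp were nearest to 0.540% of all coding genes, and to 1 of 33, 1 of 38 and 3 of 30 genes of the T-cell surface, transcription factor and Notch lists.

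**Figure D3:**
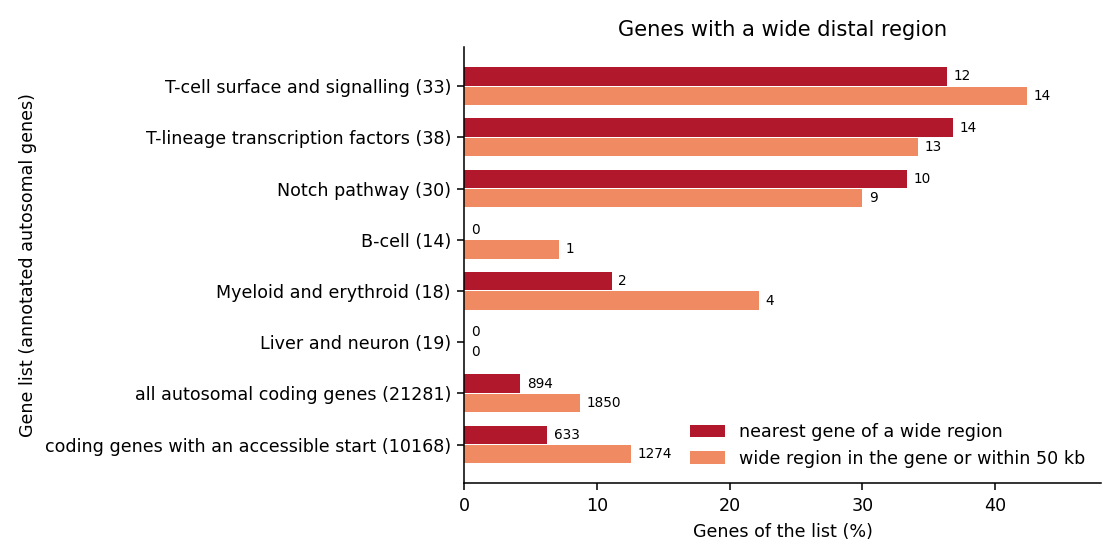
Percentage of the genes of each list that were nearest to at least 1 wide distal region (red) or held one within the gene or 50 kb of it (orange), with the number of genes beside each bar and the annotated autosomal genes of the list in brackets. Both T-cell lists and the Notch list stand at 30 to 42.4%, all coding genes at 4.20% and 8.69%, and those with an accessible start at 6.23% and 12.5%.

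The 34 members at listed T-cell genes were 1007 to 1801 bp wide (median 1128.5 bp) and lay 1927 to 897628 bp from the nearest coding start (median 32109 bp). Of these, 20 were intergenic, 13 intronic and 1 in an exon, and 4 had a CpG-rich centre. None of the 34 had a near-identical copy elsewhere. Nearest here refers to the start of the gene and does not say which gene a region acts on.

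Among genes of the T-cell receptor pathway, Cd247, which encodes the zeta chain of the receptor complex, had 2 members in its first intron, of 1281 and 1012 bp. The wider one (chr1:167774541-167775821) held 6 GC boxes and lay 444 bp from the next accessible region. Zap70, the kinase that binds this chain, had a member of 1168 bp in its first intron (chr1:36823346-36824513), 4651 bp from its start, with 3 ETS and 3 RBPJ cores. Lat, the adaptor that Zap70 phosphorylates, had a member of 1643 bp (chr7:133482599-133484241) at 28816 bp from its start, with 3 palindromic E-boxes and 4 RBPJ cores. It lay 202 bp from the next region, and 22.7% of the 25-base words at its centre occur more than once in the genome. Themis, a signalling protein of developing thymocytes, had 3 members 48391 to 99934 bp upstream, 2 of them in an intron of the neighbouring gene Ptprk. In the narrowest of them, 60.2% of the 25-base words of the centre occur more than once in the genome. At the receptor genes themselves, 1 of 12 distal regions of the beta locus was wide, 0 of 10 of the alpha and delta locus (up to 30%) and 0 of 7 of the gamma locus (up to 42.9%), beside 5.03% of all distal regions. These small counts were not tested against that share.

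Surface receptors of migrating and growing thymocytes formed a second group. The chemokine receptor gene Cxcr4 was nearest to 2 intergenic members, at 22327 and 240022 bp upstream. Ccr7 had a member of 1096 bp in an intron, and Ccr9 one of 1052 bp with 4 RUNX cores and 3 CAGGTG E-boxes. Il2ra, the alpha chain of the interleukin-2 receptor, had a member of 1038 bp in its first intron (chr2:11585211-11586248), 318 bp from the next region, with none of the E-box, ETS, RUNX, RBPJ or GC box cores. Thy1 had one of 1479 bp at 30005 bp upstream with 6 CAGGTG E-boxes. Cd2, Dntt, which encodes the terminal transferase of receptor gene rearrangement, and Ptprc, which encodes CD45, had 1 intergenic member each, of 1024 to 1139 bp.

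Of the listed transcription factor genes, those with most members were Id2, the inhibitor of E proteins, and Lef1, a TCF/LEF factor, with 3 each. The Id2 members were 1801, 1567 and 1175 bp wide at 93001, 170614 and 606086 bp upstream, and held 5, 3 and 1 palindromic E-boxes. The Lef1 members were 1337, 1049 and 1010 bp wide at 133747 to 173095 bp upstream. The related Tcf7 had a member of 1262 bp at 30473 bp upstream with a CpG-rich centre. Of the ETS family, Ets1, Ets2 and Fli1 had 1 member each, of 1103, 1387 and 1007 bp. The Ikaros family genes Ikzf1 and Ikzf3 had 1 each in an intron, of 1349 and 1118 bp. Gata3, the GATA factor of T-cell commitment, was nearest to a member 389896 bp away, and Myc to one 897628 bp downstream (chr15:62716605-62717659). Runx3, Tox, Lyl1 and Zfpm1 had 1 each. Of all coding genes, 779 had 1 member, 88 had 2, 23 had 3 and 4 had 4. The 4 genes at the top were Sox4, a factor of lymphoid progenitors, Trak1, which encodes a mitochondrial transport adaptor, Adamts20 and C130026L21Rik. All 4 Trak1 members lay in first introns of that gene and were 1139 to 1336 bp wide.

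In the Notch pathway, the receptor gene Notch1 had 2 members. The wider, 1773 bp (chr2:26315071-26316843), had its centre in an exon, with 9 CAGGTG E-boxes. It lay at the far end of the gene, which runs on the minus strand from position 26372183 to 26313423. The start 1424 bp away is that of a transcript that begins inside the gene. The other member, 1167 bp (chr2:26368600-26369766), lay in the first intron. Notch3 was nearest to 2, of 1021 and 1019 bp, both with 2 RBPJ cores. Of genes that act on the receptors or with RBPJ, Lfng, a glycosyltransferase that modifies Notch receptors, had a member of 1208 bp 9690 bp upstream, Maml3, a coactivator of the Notch complex, one of 1609 bp with 7 GC boxes, and Spen, a corepressor partner of RBPJ, one of 1572 bp. Of Notch target genes, Hey1 was nearest to 2, of 1418 and 1366 bp, at 50184 and 99540 bp upstream. Of other loci on the list, Dennd2d had one of 1319 bp and Gm266 one of 1005 bp. The paired arrangement of RBPJ cores head to head with 15 to 17 bases between them, which can hold a pair of Notch complexes, was found in 0 of the 1040 wide and 4 of the 19645 narrow regions. The opposite orientation was found in 1 wide and 9 narrow regions. Both cores had to match exactly, whereas the study allowed up to 2 mismatches, so these counts cannot be set beside those of the study. They are too few to compare the classes.

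The second question was how the sequence at the centre of wide distal regions differs. The list gives no summit, so that the centre is the middle of the merged interval and not the place of most cuts. A centre was called CpG-rich when, in 200 bp, GC content reached 50% and CpG reached 0.6 of the number that base composition predicts. This was so in 120 wide regions (11.5%) and in 4.16% of the narrow ones. The difference was 7.80 percentage points ± 4.21, higher in wide regions on 18 of 19 autosomes (exact sign-flip permutation test, adjusted p = 5.34e-05, odds ratio 3.04, 95% interval 2.48 to 3.72). By class of width the share went from 2.63% (Wilson 95% interval 2.27 to 3.05) of distal regions up to 400 bp to 8.97% (7.55 to 10.6) at 800 to 1000 bp, 9.33% (7.26 to 11.9) at 1000 to 1200 bp and 17.1% (11.3 to 24.9) over 1500 bp. The intervals on both sides of the limit overlap. Mean GC content did not pass the test, at 51.8% in both classes (difference 0.0077 points ± 1.02, exact permutation, adjusted p = 0.974). Among CpG-poor regions alone the wide ones had less GC, 50.03% against 51.3% (adjusted p = 6.87e-05, exact permutation).

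CpG-rich and CpG-poor members differed in their surroundings, here without a test. The 120 CpG-rich members had a median width of 1223.5 bp and lay a median of 13566 bp from a coding start, 69.2% of them between genes, and 49.2% had a GC box in the central 200 bp. The 920 CpG-poor members had medians of 1151 bp and 21469.5 bp, 54.8% were intergenic, and 6.52% had a GC box. Whether a CpG-rich member is a start of an unannotated transcript was not tested.

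Of the 13 cores searched, 6 passed the test in the central 200 bp, 5 lower and 1 higher in wide regions. A window of 200 bp covers a smaller part of a wide region, so the width that chose the members enters these shares. By class of width, CAGCTG was present at the centre in 25.5% up to 400 bp and 27.6% at 400 to 500 bp. It stood at 21.6% at 800 to 1000 bp and 19.5% at 1000 to 1200 bp. Over the whole region these 4 classes had 1.21, 1.17, 1.16 and 1.14 sites per kb. The palindromic E-box CAGCTG was present in 18.2% of wide and 26.1% of narrow regions, lower on 19 of 19 autosomes (difference -8.56 points ± 4.59, adjusted p = 4.96e-05, exact sign-flip permutation test, odds ratio 0.628, 95% interval 0.534 to 0.737). In all autosomal regions, promoters included, its share was 21.3%. The ETS core GGAAGT was present in 14.9% and 21.7%, lower on 18 autosomes (-6.74 points ± 3.71, adjusted p = 7.44e-05, exact permutation). The RUNX core TGTGGT stood at 18.7% and 26.0% (-6.92 points ± 6.31, adjusted p = 0.00102, exact permutation). The E-box CAGGTG stood at 22.9% and 28.1%, and the CTCF core AGGGGGC at 5.58% and 9.03%, both lower in wide regions (adjusted p = 0.00284 and 0.000678, exact permutation). Against narrow regions of 500 to 1000 bp alone, the CTCF core did not pass, with 5.58% and 6.28% (difference -0.596 points, adjusted p = 0.657, exact permutation). The GC box GGGCGG was higher, 11.4% against 9.06% (2.40 points ± 4.06, adjusted p = 0.0448, exact permutation), but among CpG-poor regions it stood at 6.52% and 7.79% (adjusted p = 0.448, exact permutation), and it did not pass against narrow regions of 500 to 1000 bp either (0.961 points, adjusted p = 0.512, exact permutation). In all autosomal regions GGAAGT was present in 20.3%, TGTGGT in 19.99%, CAGGTG in 23.5%, AGGGGGC in 9.26% and GGGCGG in 23.3%.

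The RBPJ core TGGGAA did not pass the test, at 18.6% of wide and 16.3% of narrow regions (1.69 points ± 6.34, higher on 12 of 19 autosomes, adjusted p = 0.421, exact permutation, odds ratio 95% interval 0.996 to 1.37, and 15.3% of all autosomal regions). The AP-1 core TGANTCA stood at 4.33% and 6.30% (adjusted p = 0.0751, exact permutation). It passed, lower in wide regions, with limits of 800 bp (0.00222) and 1500 bp (0.0229) and with protein-coding starts only (0.0173, all exact permutation). Fisher's exact test on pooled counts (0.0208) and a logistic model with GC content (0.0402) gave the same call. It did not pass against narrow regions of 500 to 1000 bp (0.390) or in sites per kb (0.994, both exact permutation). The GATA core AGATAA (8.75% and 8.90%), the TCF7 and LEF1 core CTTTGAT (4.42% and 4.36%), the MYB core TAACTG (8.85% and 9.08%), the NFY core CCAAT (18.1% and 18.3%) and the STAT core TTCNNNGAA (5.38% and 5.34%) each had an adjusted p of 0.918 in the exact permutation test. Over all autosomal regions the AP-1 core had a share of 4.98%, the GATA core of 6.85%, the TCF7 and LEF1 core of 3.33%, the MYB core of 7.27%, the NFY core of 19.2% and the STAT core of 4.84%. All cores were searched on both strands, and a match is a run of letters, not a bound site.

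**Figure D4:**
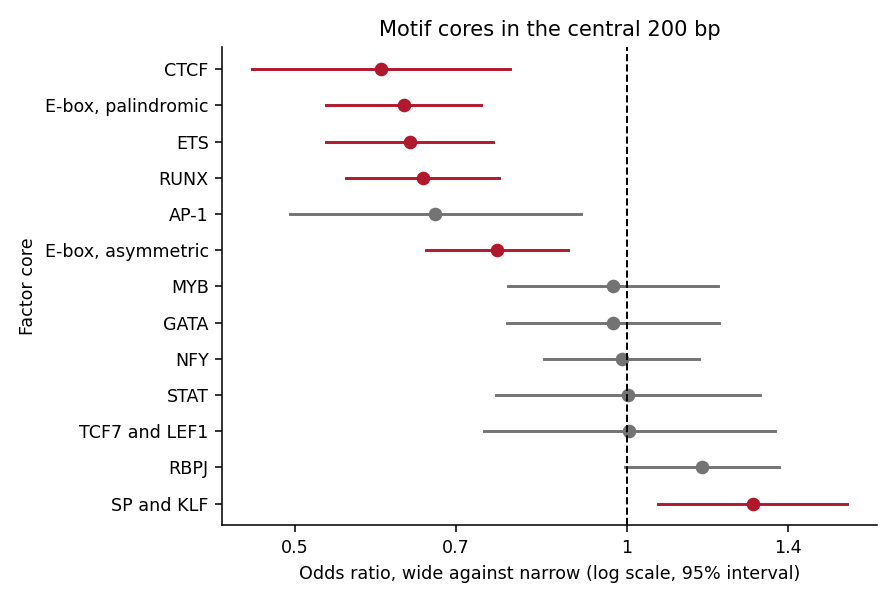
Mantel-Haenszel odds ratio (log scale, with 95% intervals) for a core in the central 200 bp of wide against narrow distal regions, for 13 factor cores named on the vertical axis. Red marks an adjusted p under 0.05 in the exact permutation test over autosomes. The intervals count single regions as independent, so that of AP-1 (0.495 to 0.909) excludes 1 although its adjusted p in that test was 0.0751. The palindromic E-box is at 0.628, ETS, RUNX, CTCF and the asymmetric E-box (CAGGTG) are also below 1, SP and KLF is above 1, and the interval of RBPJ reaches 1.

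The lower shares at the centre went with a different distribution of the cores around the middle of the region. In narrow regions CAGCTG was concentrated at the centre, with 1.60 sites per kb in the central 200 bp, 0.703 at 100 to 500 bp from the centre and 0.550 at 1500 to 2000 bp, where no narrow region reaches. In wide regions it was 1.08, 1.19 and 0.594 sites per kb, a plateau rather than a peak. Distance was counted from the middle of the merged interval and not from a summit. The plateau is thus an average over members and does not show how cores lie within a single region. GGAAGT had 0.828 and 0.887 sites per kb in the first pair of zones of wide regions and 1.27 and 0.720 in narrow ones, although the farther zone lies mostly outside narrow regions. GGGCGG stood at 0.866, 0.871 and 0.223 sites per kb in the 3 zones of wide regions. The RBPJ core had no peak in either class. It stood at 1.07, 1.003 and 1.08 sites per kb in the 3 zones of wide regions and at 0.913, 1.05 and 1.08 in those of narrow regions.

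Counted over the whole region and divided by its length, 4 cores passed the test. TGTGGT stood at 1.02 sites per kb in wide and 1.27 in narrow regions (adjusted p = 7.44e-05, exact sign-flip permutation test), GGAAGT at 0.881 and 1.01 (0.000132), CAGCTG at 1.11 and 1.21 (0.0215) and GGGCGG at 0.834 and 0.490 (7.44e-05). CAGGTG and AGGGGGC did not pass in this measure (adjusted p = 0.485 and 0.369, exact permutation). Presence anywhere in the region was higher in wide regions for all 13 cores, for example 71.6% against 42.5% for CAGCTG, but wide regions hold more letters, and this share rises with length by construction. One member held up to 16 TGTGGT cores and another up to 15 GC boxes.

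**Figure D5:**
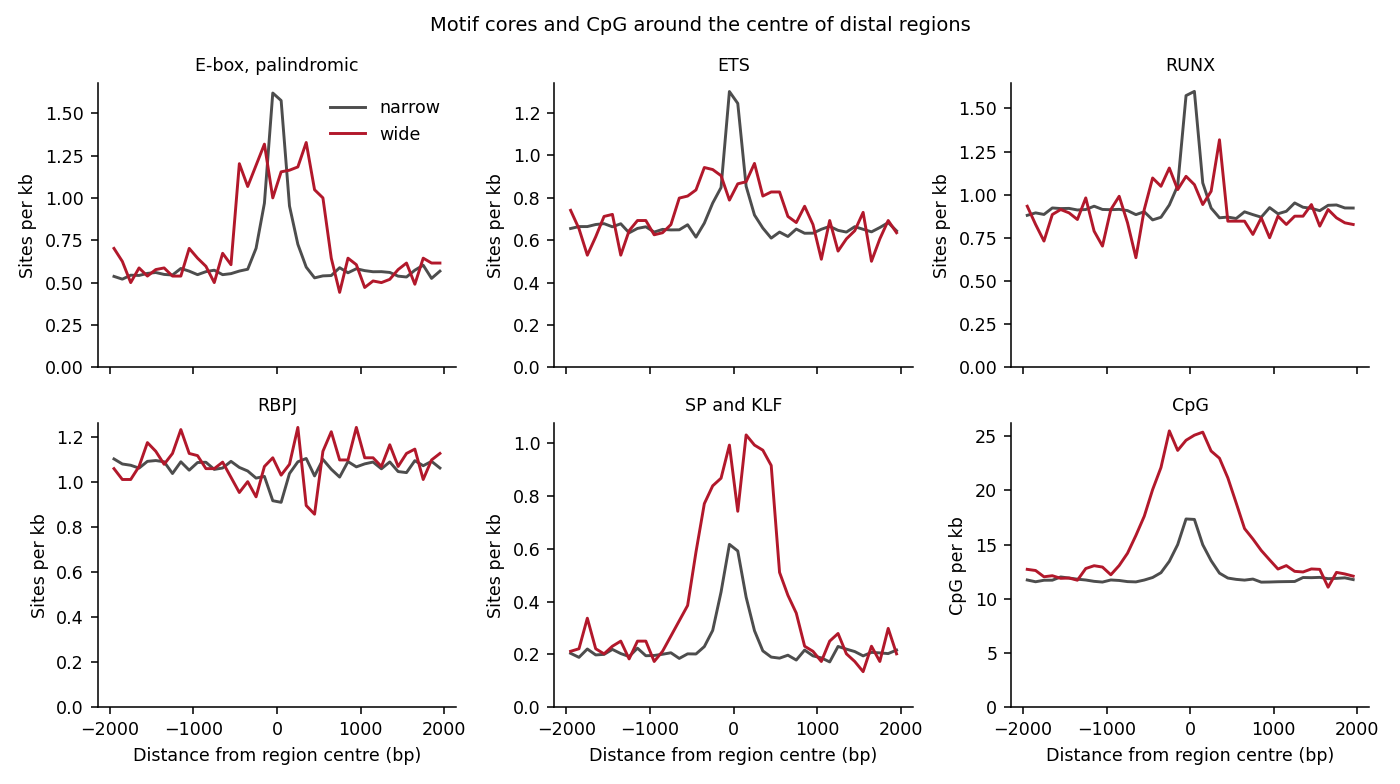
Sites per kb of 5 factor cores and CpG dinucleotides per kb (vertical axes) by distance from the centre of the region in bp, in 100 bp bins, for wide (red) and narrow (grey) distal regions. The palindromic E-box, ETS and RUNX lines of narrow regions peak at the centre, those of wide regions form a lower and broader rise, and the RBPJ line has no peak in either class.

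Repeats were compared because reads from repeated DNA can be placed at several positions. A second place in the genome that matched at least 80% of the region at 95% identity or more was found for 10 wide regions (0.962%) and 2.06% of the narrow ones (-1.05 points ± 1.30, exact permutation test, adjusted p = 0.00627, odds ratio 0.481). The call was lost with a limit of 800 or 1500 bp and beyond 5 kb from starts. A longer region needs a longer copy, so width enters this measure. Measured at equal length, 25-base words of the central 200 bp that occur more than once in the genome made up 5.58% in wide and 5.79% in narrow regions (-0.061 points ± 2.31, exact permutation, adjusted p = 0.974). Without the repetitive regions defined above, the calls for the intronic share, the CpG-rich share and the 6 cores were unchanged.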

How the data were processed

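ATAC-Seq was performed by the authors with a commercial kit on 6 libraries of Beko cells, 3 GSI and 3 DMSO. As the methods of the study and the submitters' processing notes state, reads were trimmed, aligned to mm9 with HISAT2 2.2.1 keeping 1 alignment per read, freed of duplicates with Picard and used for peak calling with MACS2 without input. Peaks were combined with MSPC, kept when found in 3 of 6 libraries, and blacklisted regions were removed. The deposited list has the chromosome, start and end of each region, and the score deposited by the authors is 0 throughout and was not used. A comparison of GSI with DMSO was planned and could not be made from a list without values per library, and depth is unknown here.

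Starts were counted from 0 in the list and are printed counted from 1. Distances and introns came from the GENCODE annotation of NCBIM37, the same build. Members, gene lists and cores were chosen with earlier results of these data known. Features were assigned at the centre of a region. For each of 19 autosomes the value of wide minus narrow regions was taken, and the mean was tested by enumerating all sign flips (two-sided, smallest possible p 3.81e-06). P-values were adjusted after Benjamini and Hochberg over 7 results of position and composition and over 13 cores. Copies were searched with minimap2 2.31-r1302. The reference does not mark repeats, so the planned share of masked bases was replaced by 25-base words, chosen after the data were seen. Genes of 1 symbol and chromosome were joined. Named by rule were the 10 widest members, all members at listed genes and the genes with most members. Further genes with 3 members were only counted, and 1 of the widest members is not reported here. The test was checked on simulated data. Python 3.11.15, numpy 2.4.6, scipy 1.17.1, pandas 2.3.3 and statsmodels 0.14.6 were used.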

Additional observations from a re-analysis of the deposited data

How the results depend on the processing

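With members over 1500 bp only, 117 regions remained, 2 listed T-cell genes were nearest to one (0.540% of all coding genes), 3 cores passed the test in place of 6, all lower, of which CAGCTG (adjusted p = 0.00419) was the only one of the 6, while CTTTGAT (0.00419) and TGANTCA (0.0229) had not passed before and the other 5 no longer passed (0.0531 to 0.971, all by exact permutation), and the differences in percentage points were -13.5 for introns, 10.995 for CpG-rich centres (adjusted p = 0.0905 for both, exact permutation), -1.21 for copies (adjusted p = 0.505, exact permutation) and 1.89 for 25-base words. With a limit of 800 bp there were 2367 wide regions, and the differences were -0.510 for copies (adjusted p = 0.0760, exact permutation), 0.385 for 25-base words, -0.165 for GC content, 0.590 for AGATAA, -0.707 for TAACTG and 0.257 for TTCNNNGAA. The difference in copies was -0.772 over 5 kb from starts (adjusted p = 0.0628, exact permutation), so that its call was lost in these 3 settings. GC content turned to -0.105 against narrow regions of 500 to 1000 bp and to -1.38 in CpG-poor regions. The share of 25-base words, which had an adjusted p of 0.974, turned to 0.232 over 5 kb from starts, 0.118 with protein-coding starts only, 0.777 without copies, 0.566 without repetitive regions and 0.357 in CpG-poor regions. A neighbour within 20 kb in place of 5 kb gave 7.84. With any match in the whole region all 13 cores were higher, with differences of 28.7 for CAGCTG, 32.0 for CAGGTG, 27.6 for GGAAGT, 23.2 for TGTGGT, 21.5 for AGATAA, 9.80 for CTTTGAT, 18.6 for TGANTCA, 11.9 for AGGGGGC and 16.0 for TTCNNNGAA, which follows from the length of the regions.

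The other turns in direction concern cores that did not pass the test, and the GC box. TTCNNNGAA turned to 0.323 over 1500 bp, 0.018 with protein-coding starts, 0.077 without copies, 0.074 without repetitive regions, 0.036 in CpG-poor regions and 0.045 with Fisher's exact test on pooled counts. AGATAA turned to 0.166 over 5 kb from starts, 0.102 without copies, 0.196 without repetitive regions and 0.546 in CpG-poor regions. TAACTG turned to -0.00073 with protein-coding starts, -0.229 without repetitive regions, -0.235 with Fisher's exact test, -0.015 sites per kb and -0.037 (log odds) in a logistic model with GC content. CTTTGAT turned to 0.071 without repetitive regions, 0.051 in CpG-poor regions, 0.061 with Fisher's exact test and 0.0049 log odds in the logistic model. CCAAT turned to -0.203 with Fisher's exact test, -2.19 in the central 400 bp, -0.040 sites per kb and -0.0019 log odds. GGGCGG turned to -1.30 in CpG-poor regions and -0.029 log odds. CAGCTG kept its direction and its call under 11 of 13 alternatives. Its difference in the central 400 bp was -3.11 (adjusted p = 0.0742, exact permutation). TGGGAA passed the test, higher in wide regions, in the logistic model (adjusted p = 0.0172), at the limit of 800 bp (0.0217, exact permutation), in the central 400 bp (0.0489, exact permutation) and for the whole region, where all cores pass with length. Over 1500 bp its shares were 16.2% and 16.3%, with an odds ratio of 0.981. The alternatives with sites per kb, repetitive regions and whole-region CpG against narrow regions of 500 to 1000 bp were added after the data had been seen. No paired analysis was possible because no region has a value in any single library. The cause of these changes was not tested. Read depth and the treatment in which a region was called are unknown.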
